A study of Homo sapiens with 4 samples.

Results

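The genes described here were chosen by name. They are the protein-coding genes whose symbol begins with ITGA, with ITGB, COL, LAMA, LAMB or LAMC and then a digit, with MMP or with ADAMTS, the naming stems of integrins, collagens, laminins and matrix-degrading proteases. RefSeq holds 134 such genes, and 28 of them had a named probe set among the 14884 named genes of the array table. The 28 were 12 secreted matrix metalloproteinases (MMPs), 6 membrane-type MMPs, MMP23B, 5 ADAMTS-like genes, COL26A1 and 3 genes for integrin-binding proteins, ITGB1BP1, ITGB1BP2 and ITGB3BP. They held 0 integrin subunits, 0 laminin chains and 0 ADAMTS proteases. The other 106 genes are not analysed here, so the results below concern mainly MMPs and say nothing of integrin, laminin or most collagen genes.

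The levels came from 4 whole-transcript arrays of LS411N-5FU-R cells, which were derived from the colon carcinoma line LS411N and are resistant to 5-fluorouracil. The fungal epipolythiodioxopiperazine verticillin A was given at 50 nM for 3 days in the cells of 2 arrays, and the 2 control arrays came from cells grown without it (0 nM). All 4 arrays share the resistant line, the medium and the culture time, and the parental line was not among them. Whether the arrays within a group stem from separate cultures is not stated in the labels, and the tests therefore measure the spread between arrays, which may be technical only. Each level is the authors' normalized log2 value, and the 4 arrays had medians of 4.59 to 4.62. Over all probe sets the verticillin A arrays correlated at r = 0.995, the control arrays at 0.994, and arrays of different groups at 0.990 to 0.992. Such correlations run across genes, not across samples. The epithelial markers EPCAM and KRT18 lay between 10.3 and 11.1 on the 4 arrays. Of the 9 measured colon epithelium markers, KRT20, CDX1, GPA33 and CDX2 lay below the median of all named genes, between 3.96 and 5.53. In this list VIL1 was lower with verticillin A (log2 change -0.62, limma adjusted p = 0.0167) and KRT19 higher (0.44, limma adjusted p = 0.0493), and their part in the results below was not tested. The 4 measured fibroblast and smooth muscle markers, 3 endothelial markers and 1 leukocyte marker all lay between 3.38 and 4.86.

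MMPs are zinc-dependent endopeptidases that cleave collagens, other matrix proteins and cell surface proteins. Most are made as inactive precursors whose propeptide has to be removed, and TIMPs and the membrane protein RECK hold them in check. Secreted MMPs act in the matrix, whereas membrane-type MMPs are anchored at the cell surface. In colorectal tumours much of the MMP RNA is made by stromal and immune cells, which a pure cell line lacks. Many genes of secreted MMPs lie in a cluster on chromosome 11, and several of them carry a TATA box and a binding site for the transcription factor AP-1 close to their start. Integrins join the matrix to the cytoskeleton, and proteins bound to the tails of their beta chains set how active they are.

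The promoters of MMP20 and MMP10 are shown because, among the member promoters that could be searched, they held the AP-1 letters, and that of ITGB1BP1 because this gene passed the test described below. Each window runs from 250 bases before to 50 bases after a RefSeq start (build GRCh38.p14). Capitals mark motifs that were searched on both strands. The AP-1 motif was TGANTCA, which reads alike on both strands. The TATA box motif was searched as TATAAA. The GC box, which the factor Sp1 binds, was searched as GGGCGG.
MMP20, chr11:102625283-102625582, minus strand: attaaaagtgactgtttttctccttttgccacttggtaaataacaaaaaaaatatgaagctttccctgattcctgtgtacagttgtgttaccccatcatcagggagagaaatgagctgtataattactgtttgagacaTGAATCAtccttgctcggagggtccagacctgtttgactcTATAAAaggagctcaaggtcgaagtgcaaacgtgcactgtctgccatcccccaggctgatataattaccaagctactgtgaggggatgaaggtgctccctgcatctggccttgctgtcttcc
MMP10, chr11:102780579-102780878, minus strand: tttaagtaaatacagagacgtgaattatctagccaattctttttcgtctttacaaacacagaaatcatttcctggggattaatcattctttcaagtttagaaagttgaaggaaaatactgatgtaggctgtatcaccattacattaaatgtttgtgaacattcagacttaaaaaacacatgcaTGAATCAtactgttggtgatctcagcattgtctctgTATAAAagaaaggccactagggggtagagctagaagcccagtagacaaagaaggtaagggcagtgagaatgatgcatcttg
ITGB1BP1, chr2:9423479-9423778, minus strand: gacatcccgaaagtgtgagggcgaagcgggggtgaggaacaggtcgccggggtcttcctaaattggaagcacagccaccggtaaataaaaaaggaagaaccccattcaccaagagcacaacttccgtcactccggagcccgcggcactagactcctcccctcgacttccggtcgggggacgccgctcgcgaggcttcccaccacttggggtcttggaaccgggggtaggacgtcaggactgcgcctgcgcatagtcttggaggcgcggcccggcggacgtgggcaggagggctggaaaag

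The AP-1 letters began at position -112 in MMP20 and at -67 in MMP10, counted back from the start, and the TATA letters at -72 and -31. The ITGB1BP1 window held none of the 3 motifs, nor did its second RefSeq start. RefSeq windows were matched for 20 members (21 windows), and MMP1, MMP12, MMP13, MMP16, MMP17, MMP19, MMP25 and MMP28 were not searched. AP-1 letters were in 2 of the 21 (9.52%) and in 7.71% of all 35116 windows. TATA letters were in 6 of 21 (28.6%), against 11.5% of all windows, and GC box letters in 10 of 21 (47.6%), against 45.0%. Those with TATA letters were MMP21, MMP26, MMP20, MMP8, MMP10 and ADAMTSL2. A match describes letters in a window and no more.

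After verticillin A, 1 of the 28 members passed the test, ITGB1BP1, which rose 1.43-fold, and 0 fell. Differences were tested with limma fitted to all 14884 genes, with Benjamini-Hochberg adjusted p under 0.05 as the threshold. The members' share of calls was 3.57%, against 8.65% of all genes (3.55% called higher and 5.1% called lower), so the calls do not set the members apart. An unadjusted p under 0.05 was found for 5 members (17.9%), against 26.7% of all genes. The values of the 2 groups did not overlap for 10 members (35.7%), 8 of them higher and 2 lower with verticillin A, against 54.8% of all genes. The median log2 change of the members was -0.002, with 13 changes above 0 and 15 below, and that of all genes was -0.006. With 2 arrays a group the 95% interval of a member's change reached 0.25 to either side in the median and 0.36 at its widest. These intervals are not adjusted for the number of genes, whereas the calls are. Changes of 0.42 (MMP13), -0.41 (MMP24) and 0.40 (MMP20) did not pass, so changes larger than that reach could also go undetected.

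**Figure D1:**
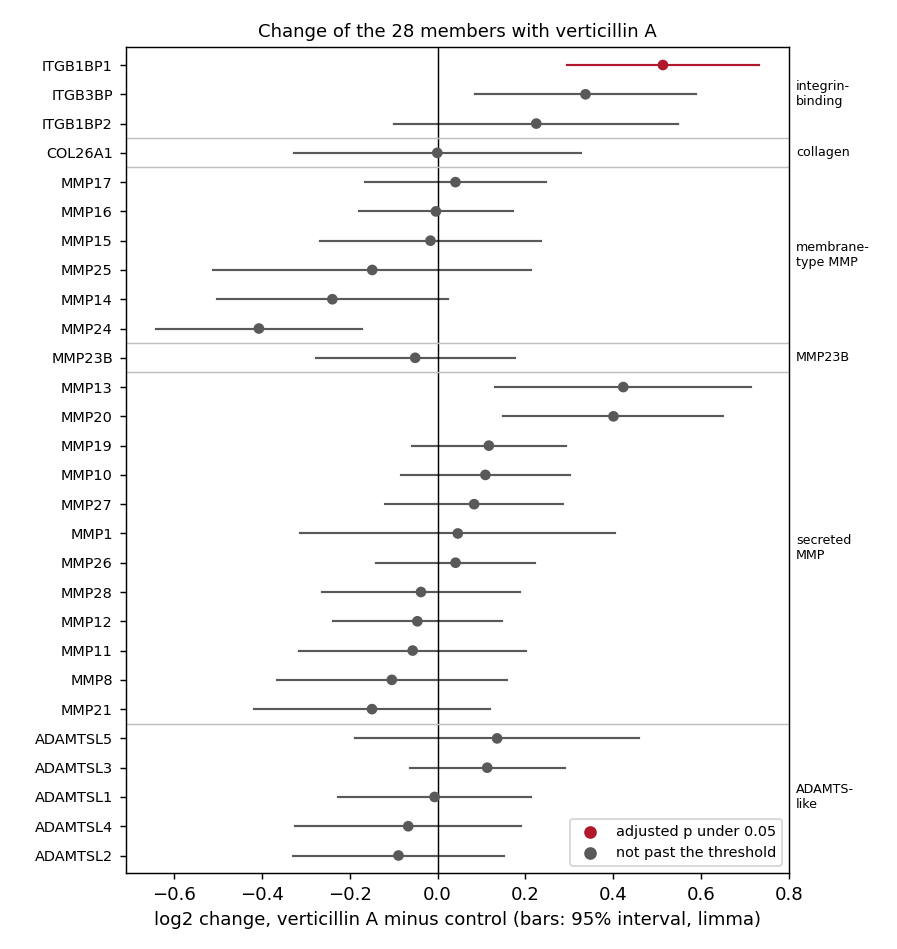
Log2 change with verticillin A minus control for the 28 members, ordered by role. Points are limma estimates from 2 arrays a group and bars are 95% intervals. ITGB1BP1 (red) passed an adjusted p of 0.05, whereas the intervals of ITGB3BP, MMP24, MMP13 and MMP20 left out 0 but their adjusted p did not pass.

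The members were mostly dim. Of the 28, 21 (75.0%) had a mean level under the median of all named genes, 5.84, as did 42.7% of the protein-coding genes. All 12 secreted MMPs were among the 21, with levels of 3.19 to 5.10 on the 4 arrays. The table carries no detection call, and a level in this range cannot be told from background, where a change can be understated.

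**Figure D2:**
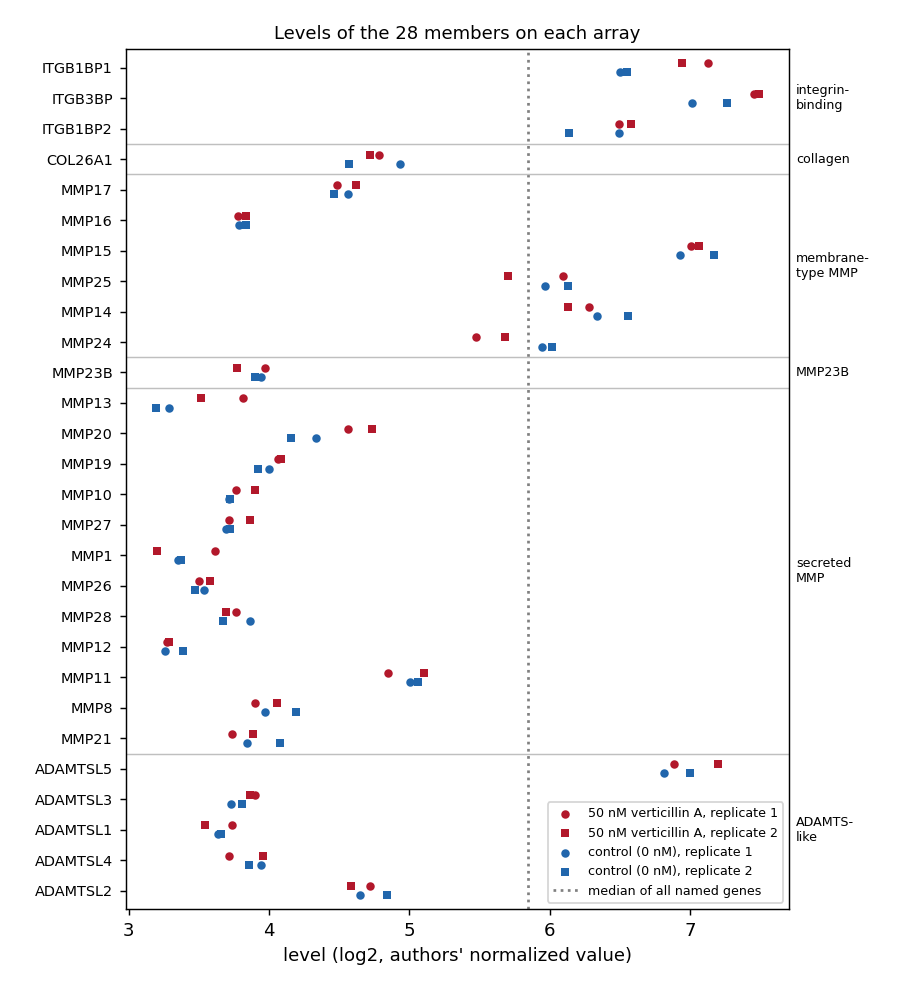
Log2 level of each member on each array, with verticillin A arrays in red above control arrays in blue. The dotted line is the median of all named genes, 5.84. The secreted MMPs lie between 3.19 and 5.10. ITGB1BP1 and MMP24 are among the 10 members (35.7%, against 54.8% of all genes) whose groups do not overlap.

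ITGB1BP1, also called ICAP1, binds the tail of the beta 1 integrin chain and holds the integrin in a less active state by competing with its activators. Its level was 7.13 and 6.94 on the verticillin A arrays, against 6.50 and 6.55 on the control arrays. Both treated arrays lay above both controls, and the gap between the groups was larger than the spread within either. The log2 change was 0.51 ± 0.09 (SE, 95% interval 0.29 to 0.73), from means of 7.04 ± 0.13 with verticillin A and 6.52 ± 0.03 in control cells (SD, n = 2 each), with a limma adjusted p of 0.0307. In bulk RNA, more RNA per cell and more cells that express a gene cannot be told apart. The call depended on having all 4 arrays. Without verticillin A replicate 1 the change was 0.42 (limma adjusted p = 0.129) and without verticillin A replicate 2 it was 0.61 (0.0729). Without control replicate 1 it was 0.49 (limma adjusted p = 0.107) and without control replicate 2 it was 0.54 (0.108). Those fits called 139 and 153 genes in all without a verticillin A array and 0 without a control array.

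ITGB3BP binds the tail of the beta 3 integrin chain and, as CENP-R, is also a component of the centromere. It had 7.45 and 7.49 with verticillin A, against 7.01 and 7.26 in control cells. The treated arrays lay above the controls, but the controls also differed from each other. The log2 change of 0.34 ± 0.10 (SE, 95% interval 0.09 to 0.59) had a limma adjusted p of 0.102, which became 0.0375 when the dimmest 50% of genes were left out and ranged up to 0.305 over the alternatives. ITGB1BP2, known as melusin, is a muscle protein that binds the beta 1 integrin tail. Its levels were 6.49 and 6.58 with verticillin A, against 6.49 and 6.14 in control cells. The groups did not overlap but almost touched, and the change of 0.22 ± 0.13 (SE) had a limma adjusted p of 0.348. All 3 integrin-binding genes had changes above 0, and 1 of the 3 passed.

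Of the 6 membrane-type MMPs 0 passed in limma, with 1 at an unadjusted p under 0.05, and their changes ran from -0.41 to 0.04. MMP24, a membrane-type MMP found mainly in nervous tissue, came closest. The probe set that represented it had 5.47 and 5.68 with verticillin A, against 5.95 and 6.02 in control cells. Both treated arrays lay below both controls, with a change of -0.41 ± 0.09 (SE, 95% interval -0.64 to -0.17) and a limma adjusted p of 0.0587, which ranged from 0.0564 to 0.226 over the alternatives and passed in none of them. MMP24 had another probe set, at 3.75 and 3.53 with verticillin A, against 3.58 and 3.85 in control cells. There the groups overlapped, and the change was -0.08 ± 0.13 (SE, adjusted p = 0.765 in a limma fit with all 16098 named probe sets as rows).

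The 2 probe sets of MMP24 stand in different runs of the array's identifiers. RefSeq places MMP24 on the plus strand. For its bright probe set, 20 of the 20 nearest named probe sets on the chromosome belonged to genes of the minus strand, and for its dim one 19 of 20 belonged to genes of the plus strand. Among member probe sets whose gene has a strand in the tables used, 20 of 21 stood in a run of their gene's own strand, and the bright MMP24 probe set was the exception. Whether it reads RNA of the opposite strand was not tested, so the values of MMP24 are uncertain.

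For MMP25, a membrane-type MMP of leukocytes, the strand of the gene was not available here, so its probe sets could not be compared with that strand. Its 3 probe sets lay in runs of both strands, with 19 of 20 minus-strand neighbours for the 2 brighter ones and 20 of 20 plus-strand neighbours for the dimmest. They cannot all stand in a run of the gene's own strand. Whether any of the 3 probe sets reads RNA of the opposite strand was not tested, so the values of MMP25 are uncertain too. The brightest had 6.09 and 5.70 with verticillin A, against 5.97 and 6.13 in control cells. The treated arrays enclosed a control value, and the change was -0.15 ± 0.14 (SE, limma adjusted p = 0.591). The changes of the other probe sets were 0.10 ± 0.08 and 0.12 ± 0.15 (SE), of the opposite sign, with adjusted p of 0.521 and 0.696 in the limma fit over all named probe sets.

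**Figure D3:**
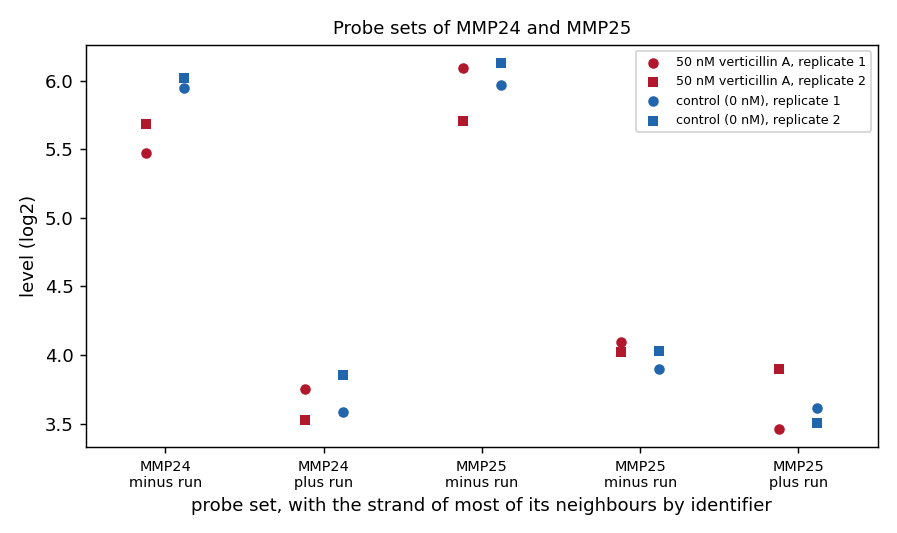
Log2 level of each probe set of MMP24 and MMP25 on each array, with verticillin A in red left of control in blue. Below each is the strand to which most of its neighbours by identifier belong. The bright MMP24 probe set separates the groups, at 5.47 and 5.68 against 5.95 and 6.02, and the dim one does not.

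MMP14, the membrane-type MMP that activates the MMP2 precursor and cleaves collagen at the cell surface, had 6.28 and 6.13 with verticillin A, against 6.34 and 6.56 in control cells. The groups did not overlap, though the nearest values were 6.28 and 6.34, and the change of -0.24 ± 0.10 (SE, 95% interval -0.50 to 0.02) had a limma adjusted p of 0.223. MMP15, another membrane-type MMP, had 7.01 and 7.06 with verticillin A, against 6.93 and 7.17 in control cells. Its treated values lay between the controls, with a change of -0.02 ± 0.10 (SE, 95% interval -0.27 to 0.23). MMP17, which is held by a lipid anchor, and MMP16 were dim, at 4.49 and 4.62 and at 3.78 and 3.84 with verticillin A. In control cells MMP17 had 4.56 and 4.47 and MMP16 had 3.78 and 3.84. Their changes were 0.04 ± 0.08 and -0.004 ± 0.07 (SE), with overlapping groups.

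MMP23B encodes an MMP with a membrane anchor at its other end. Its level was 3.97 and 3.77 with verticillin A, against 3.94 and 3.90 in control cells, and its change was -0.05 ± 0.09 (SE). It has a near-identical pseudogene, MMP23A, whose RNA its probes may share. The MMP23A probe set had 5.97 and 5.83 with verticillin A, against 5.64 and 5.93 in control cells, with overlapping groups and a limma adjusted p of 0.610.

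Of the 12 secreted MMPs 0 passed in limma, with 2 at an unadjusted p under 0.05, MMP13 and MMP20. MMP13, a collagenase of cartilage and bone, had 3.82 and 3.51 with verticillin A, against 3.29 and 3.19 in control cells. The treated arrays lay above the controls but also apart from each other. The change was 0.42 ± 0.12 (SE, 95% interval 0.13 to 0.71, limma adjusted p = 0.0862), and it passed only when the prior variance was let depend on intensity (0.0324, with values up to 0.270 over the alternatives). MMP20, which processes enamel proteins in the developing tooth, had 4.56 and 4.73 with verticillin A, against 4.34 and 4.16 in control cells. Its groups did not overlap either, and the change of 0.40 ± 0.10 (SE, 95% interval 0.15 to 0.65) had a limma adjusted p of 0.0703. Both genes lay under the median of all named genes on all 4 arrays.

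MMP13 and MMP20 belong to the chromosome 11 cluster, which in RefSeq order runs MMP7, MMP20, MMP27, MMP8, MMP10, MMP1, MMP3, MMP12 and MMP13. Of these 9 genes 7 were measured, and MMP7 and MMP3 are not analysed here. In this order the log2 changes were 0.40 for MMP20, 0.08 for MMP27, -0.10 for MMP8, 0.11 for MMP10, 0.05 for MMP1, -0.05 for MMP12 and 0.42 for MMP13. None of the 7 passed in limma, with 2 at an unadjusted p under 0.05, and the levels of all 7 were between 3.19 and 4.73.

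MMP10, the stromelysin whose promoter is printed above with an AP-1 match, had 3.76 and 3.90 with verticillin A, against 3.72 and 3.72 in control cells. The groups did not overlap, but the change of 0.11 ± 0.08 (SE, 95% interval -0.08 to 0.30) had a limma adjusted p of 0.448. MMP1, the interstitial collagenase, had 3.62 and 3.20 with verticillin A, against 3.35 and 3.37 in control cells. Its treated arrays fell on either side of the controls, and the interval of its change was -0.31 to 0.40. MMP8, the collagenase of neutrophils, had 3.90 and 4.06 with verticillin A, against 3.97 and 4.19 in control cells. MMP12, the elastase of macrophages, had 3.27 and 3.28 with verticillin A, against 3.26 and 3.39 in control cells. MMP27 had 3.71 and 3.87 with verticillin A, against 3.69 and 3.72 in control cells. The groups overlapped for MMP8, MMP12 and MMP27, with limma adjusted p of 0.604, 0.772 and 0.593.

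The other 5 secreted MMPs lie outside the cluster and had small changes as well. MMP11, a stromelysin usually made by stromal cells of carcinomas, had 4.85 and 5.10 with verticillin A, against 5.00 and 5.06 in control cells. MMP19 had 4.067 and 4.086 with verticillin A, against 3.998 and 3.921 in control cells, the only one of these 5 genes whose groups did not overlap (change 0.12 ± 0.07, SE, limma adjusted p = 0.367). MMP21, known for its part in left-right asymmetry of the embryo, had 3.74 and 3.88 with verticillin A, against 3.84 and 4.08 in control cells. MMP28, or epilysin, an MMP of epithelia, had 3.77 and 3.69 with verticillin A, against 3.86 and 3.67 in control cells. MMP26 had 3.50 and 3.58 with verticillin A, against 3.53 and 3.47 in control cells. The changes of these 5 genes were between -0.15 and 0.12 on the log2 scale.

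ADAMTS-like proteins share the matrix-binding modules of the ADAMTS proteases but lack the protease domain, and several of them bind fibrillin microfibrils. Of the 5 measured genes 0 passed in limma, with 0 at an unadjusted p under 0.05. ADAMTSL5 was the one above the median of all named genes, at 6.883 and 7.199 with verticillin A, against 6.814 and 6.997 in control cells. The groups overlapped, and its change of 0.14 ± 0.13 (SE, 95% interval -0.19 to 0.46) had a limma adjusted p of 0.582. ADAMTSL3 had 3.90 and 3.86 with verticillin A, against 3.73 and 3.81 in control cells, groups that did not overlap (change 0.11 ± 0.07, SE, limma adjusted p = 0.388). ADAMTSL2, ADAMTSL4 and ADAMTSL1 had changes of -0.09, -0.07 and -0.01, with overlapping groups. Over the 5 genes the adjusted p ran from 0.388 to 0.977.

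COL26A1, an atypical collagen described in testis and ovary, was the 1 collagen gene measured. It had 4.79 and 4.72 with verticillin A, against 4.94 and 4.57 in control cells. The treated values lay between the controls, and its change of -0.0006 ± 0.13 (SE) had a 95% interval of -0.33 to 0.33.

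Other genes of matrix and adhesion were taken from 6 lists holding 147 genes, of which 111 were measured. The lists were chosen with earlier results of these data known, so their shares of calls are not independent of those results. Of the 111, 4 were higher and 9 lower with verticillin A (11.7%, against 8.65% of all genes), with a median log2 change of -0.02, against -0.006 over all genes. After each array was centred on its median over the named genes, 6 were higher and 7 lower. Among the inhibitors that act on MMPs, RECK fell by 0.37 ± 0.07 (log2 change ± SE, limma adjusted p = 0.0341), to 7.05 ± 0.002 with verticillin A, against 7.41 ± 0.01 in control cells (SD, n = 2 each). TIMP1, TIMP2, TIMP3 and TIMP4 had changes of 0.07, 0.10, -0.15 and 0.08, and none of the 4 passed in limma, with 0 at an unadjusted p under 0.05. RECK was the 1 called gene of 7 in the list of protease inhibitors and the plasminogen system (14.3%, against 8.65% of all genes).

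Of the 16 listed ADAM genes, membrane-bound relatives of the MMPs, 1 rose and 3 fell (25%, against 8.65% of all genes). Their median change was -0.02. ADAM21, ADAM20 and ADAM2 were measured but not listed. The changes of these were 0.58 (limma adjusted p = 0.0191), 0.03 and 0.01, and only ADAM21 passed. ADAM11, which lacks protease activity, rose by 0.49 ± 0.08 (log2 change ± SE). ADAM28 fell by 0.43 ± 0.07, ADAM9 by 0.40 ± 0.07 and ADAM17, the main sheddase of TNF, by 0.31 ± 0.07, with limma adjusted p of 0.0283, 0.0323 and 0.0497. The mean levels of ADAM11 and ADAM28 were under the median of all named genes. With verticillin A ADAM28 had 4.83 and 4.75, within the range of the secreted MMPs, which cannot be told from background. After median centring ADAM17 was no longer past the threshold, nor with all named probe sets as rows (limma adjusted p = 0.0633 and 0.0540, and 0.00297 to 0.230 over the alternatives).

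Of 16 other matrix receptors and basal adhesion genes, 1 rose and 3 fell (25%, against 8.65% of all genes), with a median of -0.16. An unadjusted p under 0.05 was found for 12 of the 16 (75%), against 26.7% of all genes. The list was bright, with a median level of 8.08, against 5.84 for all genes. With the dimmest 50% of genes left out, 11 of 13 listed genes had an unadjusted p under 0.05 in limma, as did 3291 of all 7442. The part of level in these shares was not tested. After median centring 3 of the 16 were higher and 2 lower. GPC4, a glypican, fell by 0.59 ± 0.12 (log2 change ± SE), CD44, a receptor for hyaluronan, by 0.41 ± 0.07, and DDR1, a receptor kinase for collagen, by 0.35 ± 0.07. HMMR, a hyaluronan-binding protein of the mitotic spindle, rose by 0.42 ± 0.07. DDR1 was no longer past the threshold after centring (limma adjusted p = 0.0584, and 0.0065 to 0.226 over the alternatives). With all named probe sets as rows neither DDR1 (limma adjusted p = 0.0509) nor GPC4 was past it (GPC4 limma adjusted p = 0.0505, and 0.00741 to 0.162 over the alternatives). Of 32 matrix glycoproteins and proteoglycans 2 rose and 2 fell (12.5%, against 8.65% of all genes), with a median of 0.01. Besides SPP1 (1.37 ± 0.14, SE), THBS1, which encodes thrombospondin 1, rose by 0.65 ± 0.07. The proteoglycan versican (VCAN) fell by 0.79 ± 0.08 and THBS3, whose mean level was under the median of all named genes, by 0.51 ± 0.08. When the probe sets of each gene were averaged the change of VCAN was -0.39, against -0.79 for its brightest probe set. The probe sets of VCAN therefore did not change alike.

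Of 25 genes of focal adhesions and integrin activation 0 passed in limma, with 4 at an unadjusted p under 0.05, and the smallest adjusted p values were those of TES (-0.31 ± 0.07, SE, adjusted p = 0.0506) and TNS3 (-0.30 ± 0.07, adjusted p = 0.065). Of 15 matrix-modifying enzymes 0 passed in limma, with 5 at an unadjusted p under 0.05, and PCOLCE and P3H1 had changes of 0.34 ± 0.08 and -0.28 ± 0.08 (SE). The calls of these lists also rest on all 4 arrays, with 0 to 2 of the 111 genes called when 1 array was left out.

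**Figure D4:**
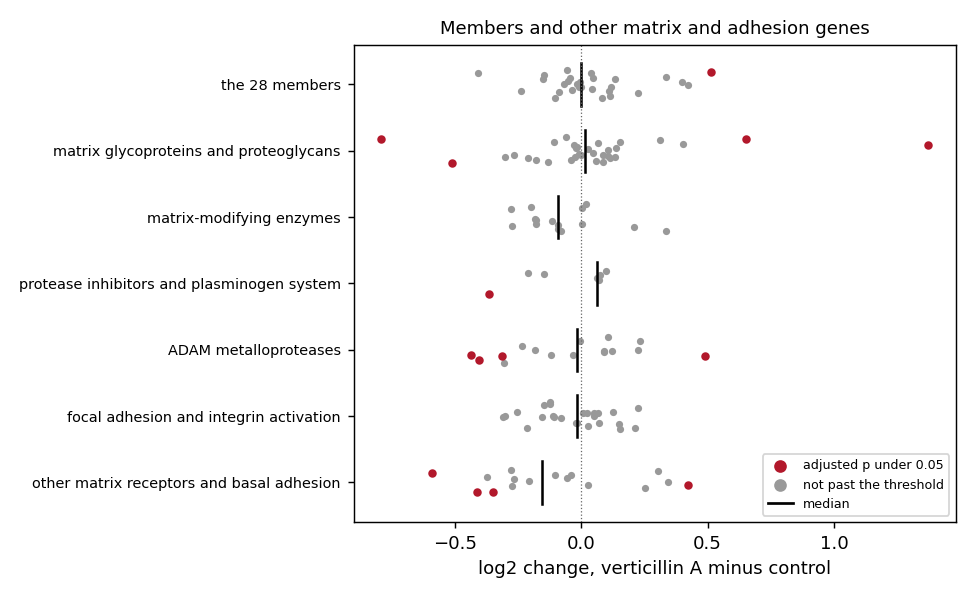
Log2 change with verticillin A minus control for the 28 members (top) and the genes of 6 matrix and adhesion lists, 1 point per gene, with the median of each as a black bar. Genes past an adjusted p of 0.05 are red. The members range from -0.41 to 0.51, and called genes of the lists reach -0.79 (VCAN) and 1.37 (SPP1).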

How the data were processed

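Levels in LS411N-5FU-R cells were measured on Affymetrix whole-transcript arrays. The authors deposited log2 values for each probe set on each of the 4 arrays, made with GCRMA per the submitters' processing notes. The log2 scale was read from their range. The sources used here give no GCRMA version, annotation or genome build. The table held 53617 probe sets, of which 16098 have 1 gene symbol, 0 several and 37519 none in the platform annotation used here. All 16098 matched RefSeq (GRCh38.p14) by gene identifier. The probe set with the highest mean represented a gene (779 genes had several, 2 of them members), which left 14884 genes.

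Groups came from the sample titles. The test was limma's (version 3.58.1 under R 4.3.3, lmFit, eBayes) on all 4 arrays, verticillin A minus control, with Benjamini-Hochberg adjustment over all 14884 genes and no filter. The fit had 2 residual and 3.43 prior degrees of freedom. It was run on simulated data with variances drawn from its own fitted prior and normal errors. That run cannot show how the fit behaves where these assumptions fail. Members and lists were chosen with earlier results of these data known. Every member is named. For lists, up to 4 called genes with the largest change are named, or otherwise the 2 with the smallest p. The TIMP genes, MMP23A, ADAM2, ADAM20 and ADAM21 were named outside that rule. Protein motifs were planned but not searched, as no protein table was used. Alternatives were a replicate block, median centring, quantile normalization, leaving out the dimmest 50% of genes, averaged probe sets, an intensity trend and leaving out each array. A fit with all named probe sets as rows was added after seeing the data. The number of arrays limits the precision.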

Additional observations from a re-analysis of the deposited data

How the results depend on the processing

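The count of members called was 1, as in the report, with median centring, quantile normalization, averaged probe sets and all named probe sets as rows. It was 2 with the dimmest 50% of genes left out (7 members tested) and 2 with the intensity trend, 0 with the replicate block and 0 whichever array was left out. Over the same settings the matrix and adhesion lists, with 13 calls in the report, gave 22 and 23 calls, 6 with the replicate block, and 0 to 2 without 1 array. All genes, with 1287 calls, gave 2399 and 2428, 592 with the replicate block, and 0 to 153 without 1 array. Leaving out an array leaves 1 residual degree of freedom fewer, and the lone array is assumed to vary like the other group. The smallest adjusted p of all genes was 0.0525 without control replicate 1 and 0.0502 without control replicate 2, where 3715 and 3528 genes had an unadjusted p under 0.05. Same-numbered arrays did not deviate together (r = 0.01 across genes), so the numbers were not taken as pairs. With the replicate block the limma adjusted p of ITGB1BP1 was 0.0603. The block left 3 higher and 3 lower calls in the lists, and RECK (0.0692), ADAM9 (0.0603), ADAM17 (0.0892), ADAM28 (0.0577), CD44 (0.0600), DDR1 (0.0820) and HMMR (0.0577) were then not past the threshold. Centring moved every change up by 0.04, and the share of lower genes among all calls was 47.1% after it, against 59.0% before. ITGB1BP1 kept its direction in 11 of 11 alternatives and its call in 6, with adjusted p from 0.00737 to 0.129. The cause of the other shifts was not tested. Low signal limits the secreted MMPs, for which no detection call was used here.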

Other observations

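Some non-coding genes carry the names of matrix and adhesion genes, and the annotation names probe sets for 7 of them. They were looked up after it was seen which symbols were present, and none passed the threshold in limma. ADAMTS9-AS2, named as antisense to the protease gene ADAMTS9, had 3.93 and 4.19 with verticillin A, against 3.61 and 3.77 in control cells, with a log2 change of 0.37 ± 0.11 (SE, limma adjusted p = 0.108). COL4A2-AS1, named as antisense to the type IV collagen gene COL4A2, had 3.46 and 3.42 with verticillin A, against 3.65 and 3.85 in control cells, with a change of -0.31 ± 0.09 (SE, limma adjusted p = 0.0969). In both the groups did not overlap, and both lay below the median level of all named genes. ITGB2-AS1, ADAMTS7P1, COL18A1-AS1 and COL18A1-AS2 had changes of 0.15, 0.26, 0.02 and -0.03, with limma adjusted p of 0.375, 0.343, 0.955 and 0.870. MMP23A is given in the report. The host genes were not analysed here.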
